A study of Caenorhabditis elegans with 16 samples.

Results

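The superoxide dismutases and catalases of *C. elegans* are 8 genes, *sod-1* to *sod-5* and *ctl-1* to *ctl-3*, chosen by name and matched to their WormBase gene identifiers. All 8 were among the 20447 genes of the deposited count table, with 5 dismutases and 3 catalases. RNA came from whole worms at day 1 of adulthood, about 1000 animals per library, with 2 biological replicates in each of 8 groups. The strains were wild type N2 (wt), the single mutant *ets-4(rrr16)*, and 2 double mutants that carry the same *ets-4* allele together with either *daf-16(mu86)* or *pqm-1(ok485)*, called *daf-16; ets-4* and, for the other, *pqm-1; ets-4*. Each strain was collected at 20 °C, and also after 2 h at 10 °C followed by 24 h at 4 °C, so temperature and the added time cannot be told apart in the comparisons between temperatures. The study asked which genes depend on the transcription factors DAF-16 and PQM-1 when *ets-4*, a negative regulator of cold survival, is lost.

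Superoxide dismutases turn superoxide, a by-product of respiration, into hydrogen peroxide and oxygen. Catalases then split hydrogen peroxide into water and oxygen, and in animals much of this takes place in peroxisomes. In *C. elegans*, *sod-1* encodes the main cytosolic copper/zinc enzyme and *sod-5* a minor one, *sod-2* and *sod-3* encode mitochondrial manganese enzymes, and *sod-4* encodes an extracellular or membrane-bound form. CTL-2 is the peroxisomal catalase, CTL-1 is cytosolic, and *ctl-3* is the third gene of the same tandem cluster. Several of these genes, *sod-3* above all, are widely used as readouts of the FOXO factor DAF-16.

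Total counts per library were 32046029 to 48770269 at 20 °C and 36049588 to 43039567 at 4 °C, and levels are given as CPM, counts scaled to the TMM-normalized library size and to a common total. The mutated genes were checked first. At 4 °C, *ets-4* was at 60.3 and 84.5 CPM in wt and between 4.35 and 12.7 CPM in the 6 mutant libraries. At 20 °C the order was reversed. *ets-4* was then at 26.3 and 25.9 CPM in wt and between 76.9 and 201.9 CPM in the 6 libraries labelled as mutants. The sources used here do not say how this allele changes the level of its transcript. Whether these values go against the labels therefore cannot be told. The *daf-16* transcript was at 104.2 and 116.0 CPM in the *daf-16; ets-4* libraries at 4 °C, against 246.9 and 226.2 CPM in *ets-4*, whereas the 20 °C libraries with that double mutant's label held 106.9 and 174.6 CPM, against 163.4 and 184.6 CPM in those labelled *ets-4*. The *pqm-1* transcript was at 149.7 and 142.6 CPM in *pqm-1; ets-4* at 4 °C, against 221.3 and 269.3 CPM in *ets-4*. At 20 °C it was at 5.98 and 16.15 CPM, against 20.4 and 32.8 CPM. None of these transcripts was absent from the libraries of its mutant. Any direction drawn from the 20 °C mutant libraries, including the change with cold in a mutant, therefore rests on their labels. The summed level of 6 intestine markers was 38051 to 48075 CPM at 20 °C and 21785 to 28344 CPM at 4 °C, and that of 6 neuron markers was 234.6 to 293.4 and 290.3 to 361.2 CPM. Single markers did not all follow these sums. In wt, edgeR's quasi-likelihood test called *ges-1*, *vit-2* and *vit-6* lower with cold, but not *elt-2* or *ifb-2* (adjusted p = 0.0509 and 0.248). The log2 fold change of the intestine marker *act-5* with cold was 0.18 in wt (SE 0.59). It was -0.20 in *ets-4*, -0.75 in *daf-16; ets-4* and -0.41 in *pqm-1; ets-4*, and was called in none of these strains. By the sign of the difference, the neuron markers *ric-4* and *egl-21* were lower with cold in each strain, and the others higher. The same test called *unc-64* and *snb-1* in every strain and *ric-4* in *pqm-1; ets-4* only. It called *egl-21*, *rab-3* and *unc-13* in none. The summed level of 12 sperm markers was 6.15 to 273.5 CPM at 20 °C and 6.13 to 121.1 CPM at 4 °C, and replicate 2 was the higher in all 8 groups. At 4 °C the summed level of 5 muscle markers was 1775 and 2132 CPM in wt. It was 2411 to 3443 CPM in the 6 mutant libraries, which did not overlap with wt. Of all genes, 51.8% did not overlap between *ets-4* and wt at 4 °C. The share was 63.7% for *daf-16; ets-4* and 61.3% for *pqm-1; ets-4*, and that for the 6 libraries together was not counted. At 20 °C the summed level was 1910 and 1996 CPM in wt and 2685 to 4616 CPM in the mutants. That of 5 epidermis markers was 836.3 to 1990 CPM at 20 °C and 478.9 to 1206 CPM at 4 °C. The 12 oocyte and early embryo markers summed to 6054 to 10501 and 7676 to 10525 CPM, the 6 germ line markers to 2407 to 2838 and 2945 to 3191 CPM, and the 8 older embryo markers to 19.5 to 24.96 and 12.2 to 20.01 CPM. At most 1 marker was at 0 in a library, in the older embryo and epidermis lists only.

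The genes lie on 4 chromosomes of the WBcel235 build. *sod-1* (WBGene00004930) spans chromosome II 6972706 to 6973887 on the minus strand, and *sod-5* (WBGene00007036) spans II 4417633 to 4419130 on the plus strand. *sod-2* (WBGene00004931) spans I 8434550 to 8435807, *sod-3* (WBGene00004932) spans X 17092753 to 17094306, both on the plus strand, and *sod-4* (WBGene00004933) spans III 9496884 to 9500375 on the minus strand. The catalases stand side by side on the minus strand of chromosome II: *ctl-2* (WBGene00000831) at 14299556 to 14302027, *ctl-1* (WBGene00000830) at 14303568 to 14306260 and *ctl-3* (WBGene00013220) at 14307798 to 14310779, with gaps of 1540 and 1537 bases. The counted reads were uniquely mapped, so reads shared by near-identical catalase copies would be lost and the levels of *ctl-1*, *ctl-2* and *ctl-3* are uncertain to that extent.

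Several members share exon sequence with a gene on the opposite strand, and whether the counting used strand is not given in the sources used here. *sod-4* overlaps *ctr-9* over 175 bases, *ctl-2* overlaps *Y54G11A.7* over 65 bases, *sod-2* overlaps *dpt-1* over 21 bases, and *sod-3* overlaps *C08A9.3* over 65 and *lido-1* over 24 bases. Of these neighbours, *ctr-9* had a mean level of 209.6 CPM and rose with cold by 0.31 to 0.52 on the log2 scale (adjusted p by edgeR's quasi-likelihood test 0.000863 to 0.0212 over the 4 strains). *Y54G11A.7* had a mean of 18.7 CPM and log2 differences with cold of -0.39 in wt, -0.51 in *ets-4*, and -1.06 in each double mutant, the latter with adjusted p of 0.0272 and 0.0271 by edgeR. *lido-1* had a mean of 7.31 CPM, and *C08A9.3* was too low to be tested, at a mean of 0.0338 CPM.

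Levels differed widely between the members. Per kilobase of exon, the median level over the 16 libraries was 243.3 CPM for *sod-1* and 173.5 CPM for *sod-2*, followed by 18.8 CPM for *ctl-2*, 13.6 CPM for *sod-4*, 2.75 CPM for *sod-3* and 2.46 CPM for *ctl-3*. The lowest were *ctl-1*, at 0.296 CPM per kilobase, and *sod-5*, at 0.132 CPM per kilobase. In this order, *sod-1* and *sod-2* did not overlap between libraries on the per-kilobase scale. The ranges of *ctl-2* and *sod-4*, of *sod-3* and *ctl-3*, and of *ctl-1* and *sod-5* did overlap. Summed over the 5 dismutases, the level was 371.4 to 458.8 CPM per kilobase at 20 °C and 384.3 to 455.4 at 4 °C, of which *sod-1* and *sod-2* together made up 92.7% to 97.6%.

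**Figure D1:**
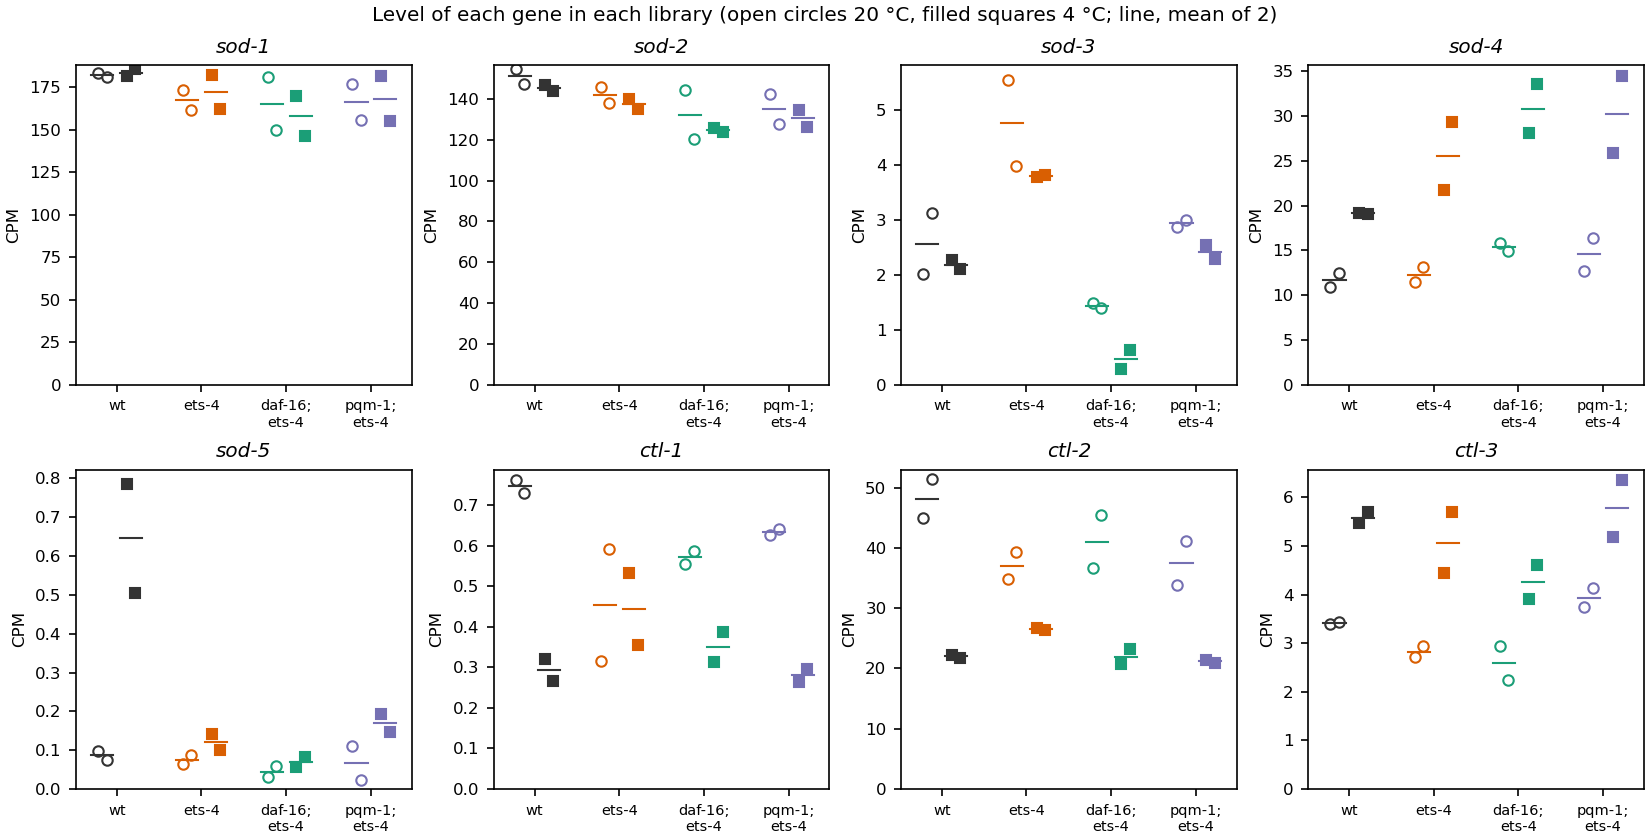
Level in CPM (linear axis from 0) of each of the 8 genes in each library, by strain, with open circles for 20 °C, filled squares for 4 °C and a line at the mean of the 2 replicates. *sod-4* was higher and *ctl-2* lower at 4 °C in every strain, *sod-5* stands out in wt at 4 °C (0.785 and 0.506 CPM), and *sod-3* is lowest in *daf-16; ets-4* at 4 °C (0.285 and 0.637 CPM).

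The first comparison asked how the genes differed between 4 °C and 20 °C in wt. *sod-5* passed the filter on low counts only through the 2 wt libraries at 4 °C and so had to differ wherever these enter, and its values are given as a description, with no test. Of the 7 others, *sod-4* and *ctl-3* rose and *ctl-1* and *ctl-2* fell, while *sod-1*, *sod-2* and *sod-3* did not pass the test. The share of all 15775 tested genes called in this comparison was 30.7%, 12.9% upward and 17.8% downward, so calls were common with cold. The corresponding counts were 3 of these 7 in *ets-4* and 4 in each double mutant, against 33.3%, 38.5% and 37.1% of all genes.

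*ctl-2*, the peroxisomal catalase and the most abundant of the 3, fell with cold in all 4 strains. In wt it was at 44.9 and 51.5 CPM at 20 °C and at 22.3 and 21.8 CPM at 4 °C. In *ets-4* the values were 34.9 and 39.3 CPM at 20 °C against 26.7 and 26.4 CPM. In *daf-16; ets-4* they were 36.6 and 45.5 CPM against 20.7 and 23.2 CPM. The *pqm-1; ets-4* libraries were at 33.9 and 41.2 CPM at 20 °C and at 21.5 and 20.9 CPM at 4 °C. The 2 temperatures did not overlap: the lowest of the 8 libraries at 20 °C lay above the highest of the 8 at 4 °C. Within a strain, 61.1% to 70.7% of all genes did not overlap between temperatures, and the share over all strains together was not counted. The log2 fold change was -1.13 (SE 0.13, adjusted p = 6.55e-05, edgeR) in wt. It was -0.48 (adjusted p = 0.0132) in *ets-4*, -0.90 (adjusted p = 0.00026) in *daf-16; ets-4*, and with *pqm-1* lost -0.83 (adjusted p = 0.00049). In *ets-4* the call was lost without 20 °C replicate 2 (adjusted p = 0.126), 4 °C replicate 1 (0.0548) or 4 °C replicate 2 (0.0716), edgeR. In bulk RNA, fewer cells of a type and less RNA per cell cannot be told apart. The part of the lower summed level of the intestine markers in this fall was not tested.

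*ctl-3* moved the other way. It was at 3.40 and 3.43 CPM in wt at 20 °C and at 5.47 and 5.70 CPM at 4 °C, and rose by 0.71 on the log2 scale (SE 0.19, adjusted p = 0.0168, edgeR). In *ets-4* it was at 2.71 and 2.94 CPM against 4.44 and 5.69 CPM at 4 °C. In *daf-16; ets-4* it was at 2.93 and 2.25 CPM against 3.90 and 4.60 CPM. All 4 of those cold libraries lay above the 4 at 20 °C of the same strains. Of all genes, 68.7% did not overlap between temperatures in *ets-4* and 70.4% in *daf-16; ets-4*. The share over both strains together was not counted. The *pqm-1; ets-4* libraries were at 3.74 and 4.14 CPM at 20 °C and at 5.19 and 6.37 CPM at 4 °C. The rises in the mutants were 0.84 (adjusted p = 0.00645), 0.72 (adjusted p = 0.0138) and 0.55 (adjusted p = 0.0431), in that order. Leaving out any of the 4 libraries ended the call in wt (adjusted p 0.0567 to 0.0886) and in *pqm-1; ets-4* (0.0824 to 0.209). In *ets-4* the call ended without 20 °C replicate 1 (0.0505) or 4 °C replicate 2 (0.0604), and in *daf-16; ets-4* without replicate 2 at 20 °C (0.116) or at 4 °C (0.087).

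*ctl-1*, the cytosolic catalase, rested on 10 to 31 reads per library. In wt it had 31 and 29 reads at 20 °C and 11 and 10 at 4 °C. The log2 fold change was -1.34 (SE 0.39, adjusted p = 0.0217, edgeR). The *pqm-1; ets-4* libraries had 28 and 29 reads at 20 °C and 11 and 12 at 4 °C, a log2 fold change of -1.17 (adjusted p = 0.0331). By DESeq2 neither passed (adjusted p = 0.0975 and 0.1304). The *ets-4* libraries had 10 and 27 reads at 20 °C and 19 and 14 at 4 °C, and the *daf-16; ets-4* libraries had 18 and 30 against 11 and 14. The temperatures overlapped in *ets-4* and not in the other 3 strains. Of all genes, 70.7% did not overlap between temperatures in wt, 70.4% when *daf-16* was also lost and 61.1% when *pqm-1* was. Neither *ets-4* nor *daf-16; ets-4* passed the test, with log2 fold changes of -0.05 and -0.70 (adjusted p = 0.178 for *daf-16; ets-4*). Without any 1 of the 4 libraries the call was lost in wt (adjusted p 0.0749 to 0.132) and in *pqm-1; ets-4* (0.0676 to 0.136).

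The make-up of the catalase transcripts shifted accordingly. Their summed level was 23.5 to 34.5 CPM per kilobase at 20 °C and 15.5 to 20.1 at 4 °C. *ctl-2* made up 88.6% to 94.1% of it at 20 °C and 75.99% to 84.4% at 4 °C, and *ctl-3* made up 4.60% to 9.66% and 13.9% to 22.9%. For both shares the 8 libraries of one temperature lay apart from the 8 of the other. How often such shares lie apart for other genes was not counted.

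**Figure D2:**
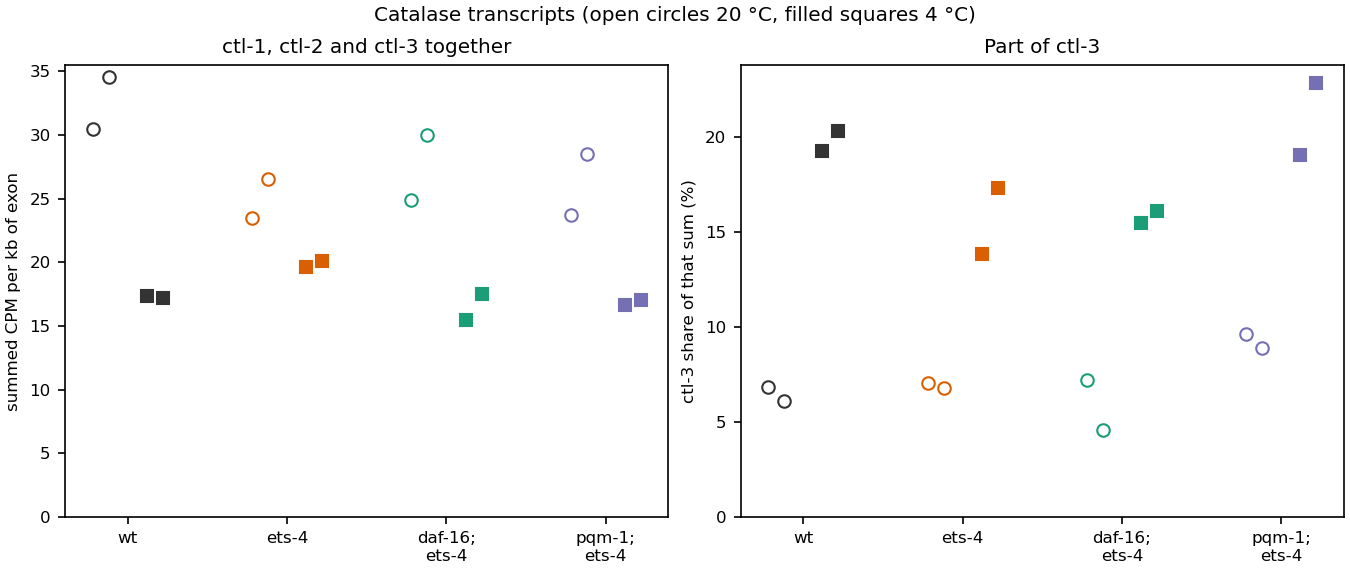
Summed level of the 3 catalase genes in CPM per kilobase of exon (left) and the part of that sum held by *ctl-3* in percent (right), 1 point per library, with open circles for 20 °C and filled squares for 4 °C. The sum was lower at 4 °C (15.5 to 20.1 against 23.5 to 34.5) and the *ctl-3* part higher (13.9% to 22.9% against 4.60% to 9.66%).

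Among the dismutases, *sod-4* rose with cold in all 4 strains. It was at 10.95 and 12.4 CPM in wt at 20 °C and at 19.2 and 19.1 CPM at 4 °C, and in *ets-4* at 11.5 and 13.1 against 21.8 and 29.3 CPM. In *daf-16; ets-4* it was at 15.8 and 14.97 CPM against 28.1 and 33.6 CPM, and in *pqm-1; ets-4* at 12.7 and 16.37 against 25.9 and 34.5 CPM. All 8 libraries at 4 °C lay above all 8 at 20 °C. Within a strain, 61.1% to 70.7% of all genes did not overlap, and the share over all strains together was not counted. The log2 fold change in wt was 0.71 (SE 0.19, adjusted p = 0.0131, edgeR), and it was 1.06 (adjusted p = 0.00116), 1.00 (adjusted p = 0.00141) and 1.05 (adjusted p = 0.00107) in the single mutant, then the double mutants with *daf-16* and with *pqm-1*. In wt the call was lost without 20 °C replicate 1 (adjusted p = 0.0963), 4 °C replicate 1 (0.0532) or 4 °C replicate 2 (0.0542), edgeR. As a share of the summed dismutase level per kilobase, *sod-4* held 1.83% to 3.20% at 20 °C and 3.21% to 6.69% at 4 °C.

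*sod-5*, the minor cytosolic enzyme, was scarce everywhere but in wt at 4 °C. It had 27 and 19 reads there, against 4 and 3 in wt at 20 °C. In *ets-4* it had 2 and 4 reads at 20 °C and 5 and 4 at 4 °C. In *daf-16; ets-4* it had 1 and 3 reads at 20 °C and 2 and 3 at 4 °C, and in *pqm-1; ets-4* 5 and 1 against 8 and 6. Both cold wt libraries exceeded the other 14 libraries, as follows from the filter. The ratio of summed, normalized counts between the temperatures was 7.34 in wt, in the direction that the filter fixes. In *ets-4* the ratio was 1.54 (95% exact interval 0.491 to 5.27, which covers counting error only). It was 1.47 in *daf-16; ets-4* (0.315 to 7.39) and 2.55 in *pqm-1; ets-4* (0.921 to 8.10).

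*sod-3*, the minor mitochondrial enzyme, fell with cold in 1 strain, *daf-16; ets-4*. There it was at 1.48 and 1.39 CPM at 20 °C and at 0.285 and 0.637 CPM (10 and 23 reads) at 4 °C. The temperatures did not overlap, which held for 70.4% of all genes in this strain. The log2 fold change was -1.63 (SE 0.35, adjusted p = 0.00332, edgeR). Without 4 °C replicate 2 of this strain it was -2.31, and without 4 °C replicate 1 it was -1.18, with adjusted p by edgeR of 0.00144 and 0.0285. In wt it was at 2.02 and 3.12 CPM at 20 °C and 2.27 and 2.10 CPM at 4 °C, which overlap. The *ets-4* values were 5.55 and 3.99 CPM against 3.79 and 3.82 CPM, and those of *pqm-1; ets-4* were 2.87 and 3.01 CPM against 2.55 and 2.30 CPM. These 3 strains had log2 differences of -0.23, -0.32 and -0.28 (adjusted p = 0.634, 0.477 and 0.504).

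*sod-1* and *sod-2*, which carry most of the dismutase transcripts, did not pass the test with cold in any strain. Over the 16 libraries *sod-1* ranged from 146.4 to 186.1 CPM with a median of 175.2 CPM, and *sod-2* from 120.3 to 154.9 CPM with a median of 139.1 CPM. The log2 difference in wt was 0.01 for *sod-1* (95% interval -0.25 to 0.27) and -0.06 for *sod-2* (-0.26 to 0.14). In the mutants the differences ran from -0.06 to 0.04 for *sod-1* and from -0.08 to -0.05 for *sod-2*.

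**Figure D3:**
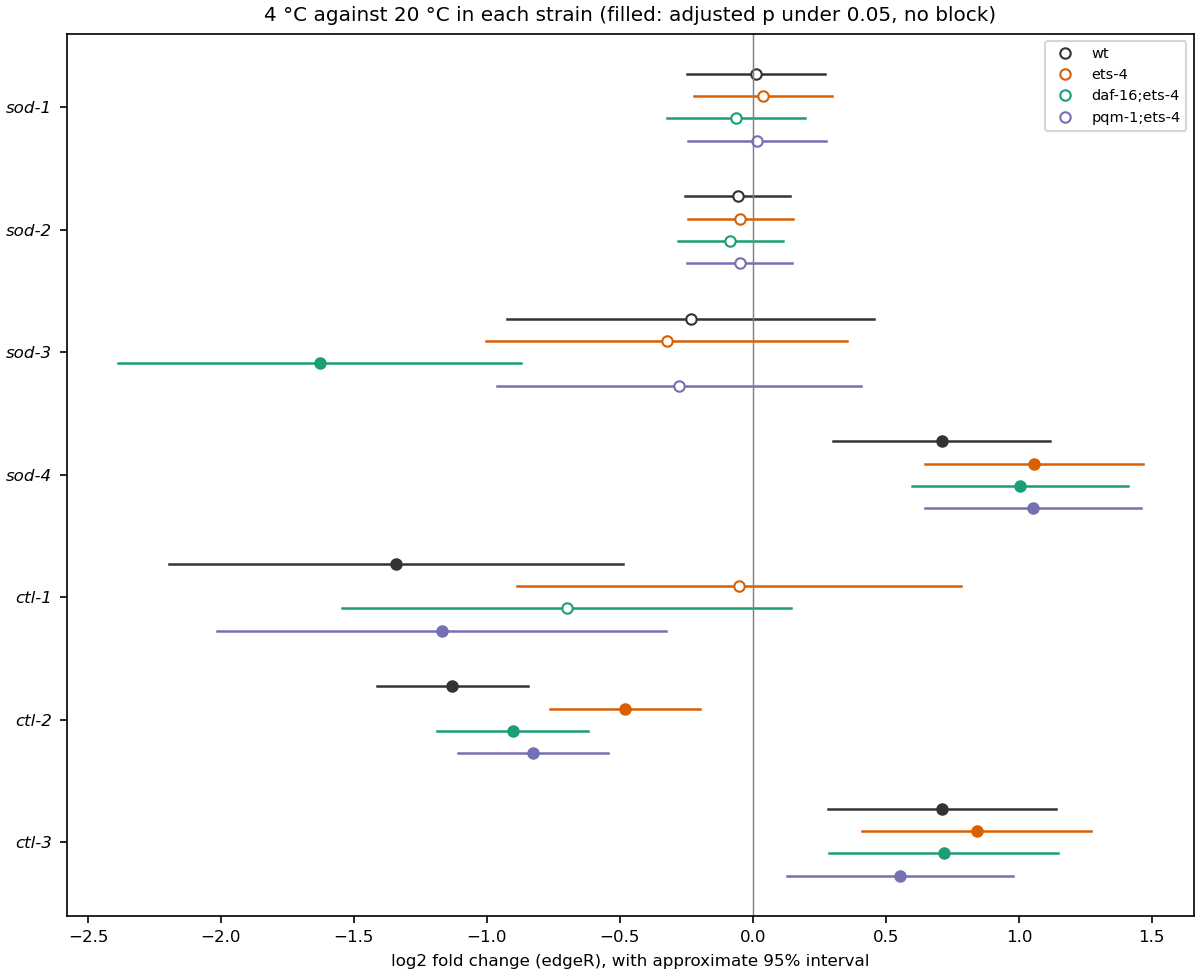
Log2 fold change between 4 °C and 20 °C for the 7 genes other than *sod-5* in each strain, with approximate 95% intervals from edgeR, 2 libraries per group, and filled points for an adjusted p under 0.05. *sod-4* and *ctl-3* lie right of 0 and *ctl-2* left of 0 in all 4 strains. *sod-3* is called in *daf-16; ets-4*.

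Whether the cold response itself differed between strains was tested by interaction terms. No member passed, and of all genes 0 passed in each of the 3 terms by edgeR without a block, with 241, 428 and 560 genes at an unadjusted p under 0.05. Between *ets-4* and wt, the difference in the cold response of *ctl-2* was 0.65 on the log2 scale (SE 0.18, unadjusted p = 0.00426) and for *ctl-1* it was 1.29 (SE 0.54, unadjusted p = 0.0366). For *sod-3* between *daf-16; ets-4* and *ets-4* it was -1.304 (SE 0.46, unadjusted p = 0.0161). After adjustment over all genes each of these had p of 1.00. The calls in some strains and not in others are therefore not shown to differ.

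Strain differences at 4 °C addressed the loss of *ets-4* and the added loss of each factor. Between *ets-4* and wt, 0 members were called, against 0.266% of all genes. The unadjusted p of edgeR was under 0.05 for *sod-3* (log2 difference 0.80, unadjusted p = 0.0269) and *sod-4* (0.42, unadjusted p = 0.0439). With a replicate block, which calls 3.16% of all genes here, 0 of the 7 members other than *sod-5* were called, while 4 of the 5 muscle markers were higher in *ets-4*, with *myo-2*, a pharyngeal myosin, at a log2 fold change of 1.01 (adjusted p = 0.0117). Without the block 0 of the 5 were called. The intestine marker *ifb-2* was also higher with the block (0.71, adjusted p = 0.0242, edgeR), and was not called without it. The part of the marker levels in these strain differences was not tested. The summed, normalized count of *sod-5* in wt was 5.34 times that in *ets-4*, in the direction that the filter requires of this gene.

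Between *daf-16; ets-4* and *ets-4* at 4 °C, 1 member was called, against 0.475% of all genes. This was *sod-3*, at 0.285 and 0.637 CPM (10 and 23 reads) against 3.79 and 3.82 CPM (135 and 151 reads). Its log2 fold change was -3.03 (SE 0.35, adjusted p = 0.00311, edgeR). The 2 strains did not overlap, which held for 38.2% of all genes. *sod-3* in *daf-16; ets-4* was also below both wt libraries, and 63.7% of all genes did not overlap between those groups. With 1 library left out, the value ran from -3.72 (without *daf-16; ets-4* replicate 2) to -2.61 (without its replicate 1), with adjusted p of 0.00774 to 0.0295. A fit on the 8 libraries at 4 °C alone ended the call, with an adjusted p of 0.0588. At 20 °C the libraries labelled *daf-16; ets-4* were at 1.48 and 1.39 CPM and those labelled *ets-4* at 5.55 and 3.99 CPM. That log2 difference was -1.73 (SE 0.32, adjusted p = 0.0987, edgeR), with 0.0824% of all genes called. With the replicate block, which calls 9.8% of all genes, the adjusted p was 0.0093, and by DESeq2 it was 0.0002.

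Between *pqm-1; ets-4* and *ets-4*, 0 members were called at 4 °C, where 0.0824% of all genes were called, or at 20 °C, where 0.0444% were. The smallest unadjusted p by edgeR were 0.0271 for *ctl-2* at 4 °C (log2 difference -0.33), and 0.0455 for *sod-3* (-0.70) and 0.0323 for *ctl-3* (0.48) at 20 °C. By DESeq2 and with the replicate block 0 members were called as well. The interval of the *sod-3* difference at 4 °C ran from -1.34 to 0.03. Between *ets-4* and wt at 20 °C, 0 members were called against 0.133% of all genes, and *sod-3* (0.89, unadjusted p = 0.0155) and *ctl-2* (-0.38, unadjusted p = 0.0129) were past the unadjusted threshold.

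**Figure D4:**
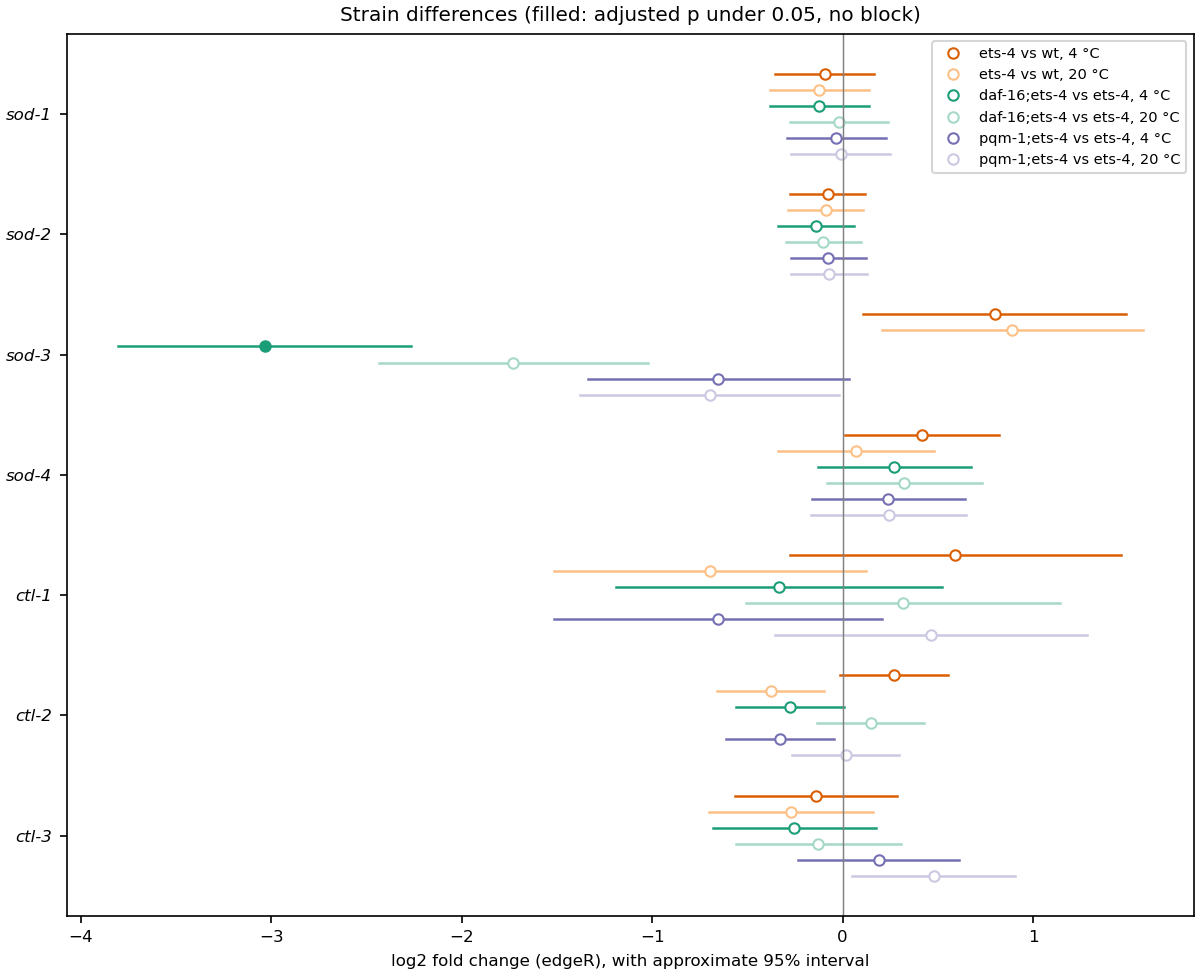
Log2 difference between strains for the 7 genes other than *sod-5* at 4 °C (dark) and 20 °C (light), with approximate 95% intervals from edgeR, 2 libraries per group, and filled points for an adjusted p under 0.05 without the block. The 1 filled point is *sod-3* between *daf-16; ets-4* and *ets-4* at 4 °C, at -3.03.

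Each double mutant was also set against wt at 4 °C, a comparison added after the data were seen. In *daf-16; ets-4*, *sod-3* was lower (log2 fold change -2.23, adjusted p = 0.00911, edgeR), 1 of the 7 members other than *sod-5*, against 3.82% of all genes. Without wt replicate 1 or 2 it did not pass (adjusted p = 0.0647 and 0.051). With the replicate block, which calls 25% of all genes, *sod-4* rose by 0.68 (adjusted p = 0.00384), and *sod-1* and *sod-2* were lower by -0.22 each (adjusted p = 0.0479 and 0.0283). In *pqm-1; ets-4*, 0 members were called against 2.45% of all genes, while the unadjusted p was 0.00426 for *sod-4*. With the block, which calls 28.9%, *sod-4* was higher (0.64, adjusted p = 0.00447). All 5 muscle markers were higher than in wt in each double mutant with the block, *myo-2* by 1.54 (adjusted p = 0.000281) and 1.49 (adjusted p = 0.000481). Calls with the block were not limited to muscle. *ifb-2* of the intestine was higher by 1.15 and 1.11, *col-19* of the epidermis by 0.97 and 0.96, and *egl-21* of neurons by 0.51 and 0.62. *pgl-3* of the germ line was lower, at -0.28 in each. The part of the marker levels in these differences was not tested. The comparisons share their wt libraries with those above.

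The other genes that make or remove peroxide were read from lists. The shares called with cold over all genes, to be set beside each count, were 12.9% upward and 17.8% downward in wt and 15% and 18.3% in *ets-4*. They were 19% and 19.5% in the double mutant with *daf-16*, and 18% and 19% in that with *pqm-1*. Of 12 peroxisome genes, 2 rose and 6 fell in wt, with a median log2 difference of -0.75 beside -0.03 over all genes. *prx-12* (-1.98), *prx-11* (-1.61) and *prx-1* (-1.51) fell, and *prx-13* (1.92) and *pmp-4*, a peroxisomal ABC transporter (1.67), rose. In the mutants 2 rose in each, and 4 fell in *ets-4*, 5 in *daf-16; ets-4* and 6 in *pqm-1; ets-4*. The upward count is near the share over all genes in each strain. Of the 8 tested genes from a list of 9 named superoxide and peroxide producers, 1 rose and 6 fell in each of the 4 strains. The falls in wt included *acox-1.3* (-3.33), *acox-1.4* (-3.29) and *acox-1.2* (-2.97), acyl-CoA oxidases, which release hydrogen peroxide in peroxisomes, and *bli-3*, a dual oxidase. The 1 gene of this list that rose was *mlt-7* (1.39), which goes against the list's name, since it encodes a peroxidase, an enzyme that uses peroxide.

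Among 22 other peroxide-removing and thiol redox enzymes, 4 rose and 5 fell in wt, with a median of 0.04 beside -0.03 over all genes. The counts were 5 and 4 in *ets-4*, 4 and 5 in *daf-16; ets-4*, and 5 and 5 in *pqm-1; ets-4*. These counts are near the shares over all genes given above, so nothing is read from them about the list. The falls in wt included the glutathione peroxidase genes *gpx-7* (-2.26) and *gpx-5* (-1.82), and the rises included the thioredoxins *trx-3* (3.33) and *trx-1* (2.72). Of 9 genes linked to SKN-1, the oxidative stress factor, 4 rose and 0 fell in wt, among them *nit-1* (3.99) and *gst-4* (1.71). Of 8 tested genes linked to DAF-16, *mtl-1* (2.86), a metallothionein, and *hsp-12.6* (1.73) rose and *dod-3* (-5.51) fell in wt, and nothing is read from these few calls beside the shares over all genes. At 4 °C, *mtl-1* was the 1 gene of the 8 called between *daf-16; ets-4* and *ets-4* (-4.78, adjusted p = 0.00192, edgeR), where 0.475% of all genes were called.

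**Figure D5:**
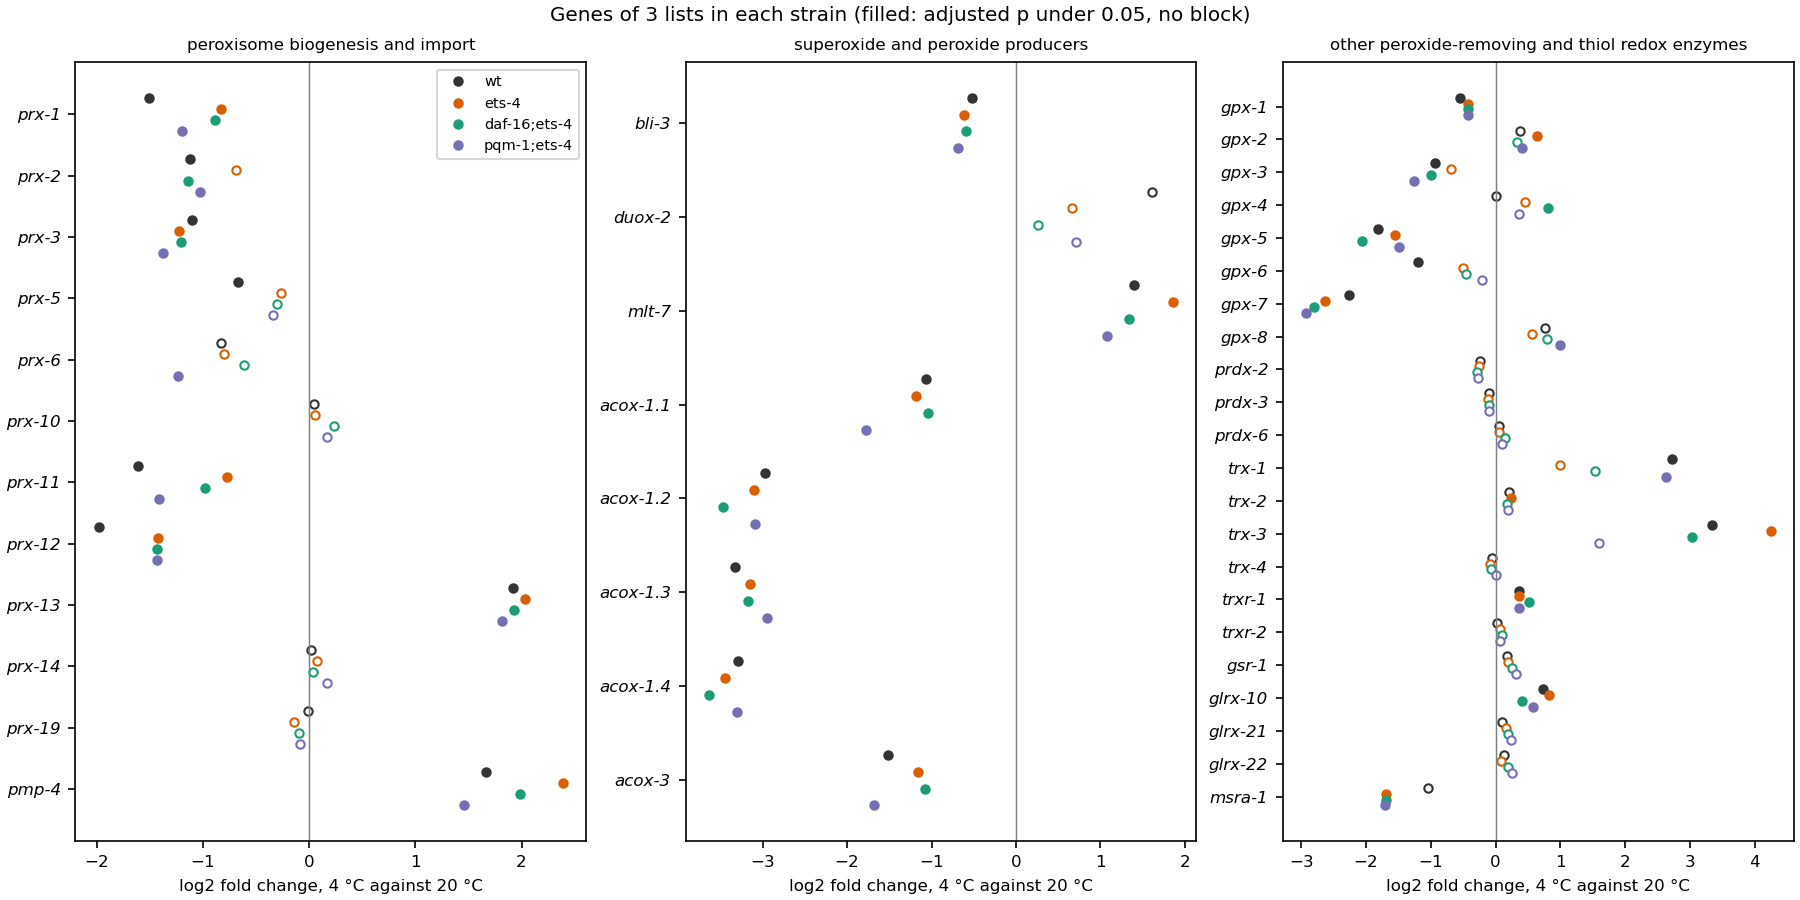
Log2 fold change between 4 °C and 20 °C (horizontal axis) of each tested gene of 3 lists in the 4 strains, from edgeR with 2 libraries per group, with filled points for an adjusted p under 0.05. The *acox* genes lie left of 0 in every strain, *prx-13* and *pmp-4* right of it.

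Over the means of the 8 groups, the genes whose levels were most like those of each member, by Pearson's r of log2(CPM + 1), are given as a description, since there are 8 points, each the mean of 2 libraries. For *sod-5* they were *ech-9* (r = 0.95), *phat-5* (0.94) and *F59A7.7* (0.93), and for *sod-3* they were *ttr-25* (0.98), *pck-1* and *C09B7.2*. For *ctl-1* they were *F19H6.5* (0.96), *T07G12.2* (0.95) and *prx-11* (0.94), and for *ctl-2* *B0416.10*, *skr-16* and *txt-2* (each 0.98). For *ctl-3* the nearest was *xbp-1* (0.98). Each is among the highest of 15775 genes, so no link is read from a high r. Among the members themselves, r was 0.94 between *ctl-1* and *ctl-2*, 0.90 between *sod-1* and *sod-2*, -0.82 between *ctl-2* and *ctl-3*, and -0.89 between *sod-4* and *ctl-2*.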

How the data were processed

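Poly-A RNA of 16 libraries was sequenced. The authors mapped single-end reads to WBcel235 with STAR, kept unique hits and used summarizeOverlaps to count reads over the exons of genes that encode proteins. The deposited values are whole-number counts per gene, without normalization. The annotation release and strand setting are not given in the sources used here. Groups came from the sample labels. Symbols, positions and exon lengths came from Ensembl release 115, which held 20159 of the 20447 genes (98.6%).

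Counts were fitted in R 4.3.3 with edgeR 4.0.16: TMM normalization, filterByExpr (at least 0.254 CPM in 2 libraries, total 15), which left 15775 genes, and the robust quasi-likelihood test on all 16 libraries with 8 group means and no block. Calls had a Benjamini-Hochberg adjusted p under 0.05 over all tested genes. Standard errors are approximate, the log2 fold change divided by the root of the F statistic. All 8 members are named; from each list, the genes named were the largest among those called. The members and lists were chosen with earlier results of these data known. Scripts were tested on simulated data.

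Replicate numbers in the labels pair the libraries: over 28 pairs of groups, the differences between replicates correlated across genes with r of 0.25 to 0.77. The replicate block was an alternative, beside DESeq2 1.42.0, other scalings, no filter, the libraries of 1 temperature, leaving out each library, and the study's rule of a 2-fold change in each replicate after adding 8.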

Additional observations from a re-analysis of the deposited data

Results flagged for a closer look

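The difference between temperatures in the *ets-4* transcript itself was set against that of wt in libraries with the *ets-4* label. It passed the test with the replicate block only. With the replicate block, the difference between the 2 cold responses was -5.57 on the log2 scale (adjusted p = 0.00894, edgeR), and without the block it was -5.63 (adjusted p = 0.281). It was noted because the difference between groups was itself tested by an interaction term. In wt, *ets-4* went from 26.3 and 25.9 CPM at 20 °C to 60.3 and 84.5 CPM at 4 °C, and in the libraries labelled *ets-4* from 76.9 and 159.4 CPM to 4.35 and 8.83 CPM. As given above, whether the 20 °C values go against the labels cannot be told, and the difference rests on those labels.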

How the results depend on the processing

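No direction of a called member reversed under any alternative run. With 2 libraries per group, counts of members called moved readily; they include *sod-5*, whose calls against or within wt at 4 °C follow from the filter. In wt with cold, 5 members became 2 when any 1 library was left out and 2 by the 2-fold rule. In *ets-4* with cold, 3 became 1 to 2 with a library left out and 0 by the 2-fold rule. In *daf-16; ets-4*, 4 became 3 to 4 and 0, and in *pqm-1; ets-4*, 4 became 2 to 3 and 0, and 2 without a filter on low counts. Between *ets-4* and wt at 4 °C, 0 became 1 with the replicate block and 1 by the 2-fold rule. Between *daf-16; ets-4* and *ets-4*, 1 became 0 at 4 °C in the fit on 8 libraries, and 0 became 1 at 20 °C with the block, by DESeq2 and by the 2-fold rule. Against wt at 4 °C, *daf-16; ets-4* went from 2 to 5 with the block and to 0 to 1 with a library left out, and *pqm-1; ets-4* from 0 to 2 with the block and 1 by DESeq2. The cause was not tested. The block changed no other call of a member. Over all genes, 42 calls between *ets-4* and wt at 4 °C became 499 with the block, 206 by DESeq2 and 0 in the fit on 8 libraries, and 75 calls between *daf-16; ets-4* and *ets-4* became 275, 187 and 23. DESeq2 gave no adjusted p for *sod-5* in the strain comparisons. In *pqm-1; ets-4*, the cold call of *ctl-3* was lost with library totals in place of TMM (0.47, adjusted p = 0.112, edgeR). Reads of *sod-5* and *ctl-1* were few, and so were the 10 and 23 of *sod-3* in *daf-16; ets-4* at 4 °C, which limits their precision.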
